A study of Rattus norvegicus with 44 samples.

Results

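Solute carriers were examined in the choroid plexus and whole blood of rats given environmental hyperthermia (EIH), amphetamine (AMPH) or saline. The set holds every gene whose array annotation carries a symbol of the form Slc followed by a number, without Slc2a1, Slc2a3, Slc4a1, Slc4a2, Slc4a5 and Slc12a2. It comes to 257 genes, read by 316 probes and belonging to 46 numbered families, of 10414 genes with a symbol on the array. A gene with several probes, as 53 members had, was read from its brightest probe. Membership rests on the symbol alone and on no measured value. The symbol prefix also takes in Slc9a3r1 and Slc9a3r2, now Nherf1 and Nherf2, which encode scaffold proteins and not carriers, and both were kept under the rule.

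Solute carriers are membrane proteins that move ions, nutrients, metabolites and drugs down or against a gradient, many of them by coupling the solute to sodium or protons. The choroid plexus is a vascular tissue with an epithelium that secretes the cerebrospinal fluid, and its carriers set which solutes pass between blood and that fluid. Anion exchangers and cation-chloride cotransporters drive its fluid secretion, while organic anion, folate, vitamin, amino acid and peptide carriers supply or clear the fluid. In blood, carriers serve red cells, platelets and leukocytes, for example serotonin uptake by platelets and iron export.

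The animals were male Sprague-Dawley rats of the NCTR strain, 3 months old, killed 3 h or 1 day after exposure. Each of 11 groups held 4 arrays. In choroid plexus the groups were AMPH, EIH and saline at 3 h, and AMPH and EIH at 1 day. No saline choroid plexus at 1 day was analysed here. In blood the groups were AMPH, EIH and saline at both times. A choroid plexus array held pooled RNA of 3 rats, whereas a blood array held that of 1 rat, so the spread between arrays is not of the same kind in both tissues, and p-values measure only the spread between these samples. Rat numbers recur across 7 of the 20 choroid plexus pools. Some recur across treatments or times, also between pools and blood, although each rat was killed once. Whether they mark the same animals is not known. Replicates 2, 3 and 4 of EIH at 1 day are linked by shared rat numbers. By rat number, every blood rat of saline or EIH at 3 h is also in a pool of that treatment and time. Most of those saline rats are in the same pool. The main tests took all arrays as independent. The 4 pools used here as EIH at 1 day are called controls in their titles but EIH in their source and treatment labels. A tag on the blood samples names striatum although the protocol says trunk blood, and their arrays carried erythroid markers at a summed log2 intensity of 17.36 to 17.43 in saline rats at 3 h, against 10.47 to 10.82 in saline choroid plexus.

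The values are single-colour intensities, given here on the log2 scale, and a difference of 1 is a doubling. Medians were 139 to 146 on the 24 arrays of the 3 h groups and 165 to 171 on the 20 arrays of the 1 day groups. The 2 times were therefore treated as separately scaled, although no source used here says so. From 1.21% to 17.1% of the probes of an array had no value, and 129 members had a value on all 44 arrays. Another 88 members had a mean below 6 in both tissues, where intensities came in tied steps. Of the choroid plexus epithelial markers, 11 of 12 tested were higher in choroid plexus than in blood (median difference 8.30). Choroid plexus AMPH 1 day replicate 2 and blood saline 1 day replicate 4 stood apart from their groups, and the named results that rest on them are given with and without them. Choroid plexus EIH 1 day replicate 1 also stood apart in its stromal markers, at a summed log2 of 16.27, against 13.32 to 13.56 in its group, and in its platelet markers, at 10.62, against 9.33 to 9.58.

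At rest the carriers separated the tissues about as strongly as other genes did. A member was called when limma's adjusted p (Benjamini-Hochberg over all genes tested) was under 0.05. Of 237 members tested in saline rats at 3 h, 124 were called, 77 higher and 47 lower in choroid plexus than in blood. That is 52.3% of the members, against 56.2% of all 9927 genes tested, of which 31.9% were higher and 24.3% lower. The median difference was 0.12 over the members and 0.15 over all genes. The substrate groups were unlike each other in their counts. Mitochondrial carriers were called in 18 of 20 tested members, 16 higher and 2 lower, with a median difference of 1.43. Monocarboxylate carriers followed with 5 higher and 2 lower of 10 (median 1.72), and nucleotide sugar and sulfate donor carriers with 9 higher and 1 lower of 16 (median 0.52). Amino acid carriers split into 10 higher and 13 lower of 44 (median -0.16), and metal carriers into 7 and 7 of 26 (median -0.15). Organic cation and anion carriers had 3 higher and 3 lower of 21. Groups follow the family number, so the serotonin and creatine carriers of family 6 count as amino acid carriers and the multivitamin carrier of family 5 as a sugar carrier. These counts describe the groups and no difference between groups was tested.

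**Figure D1:**
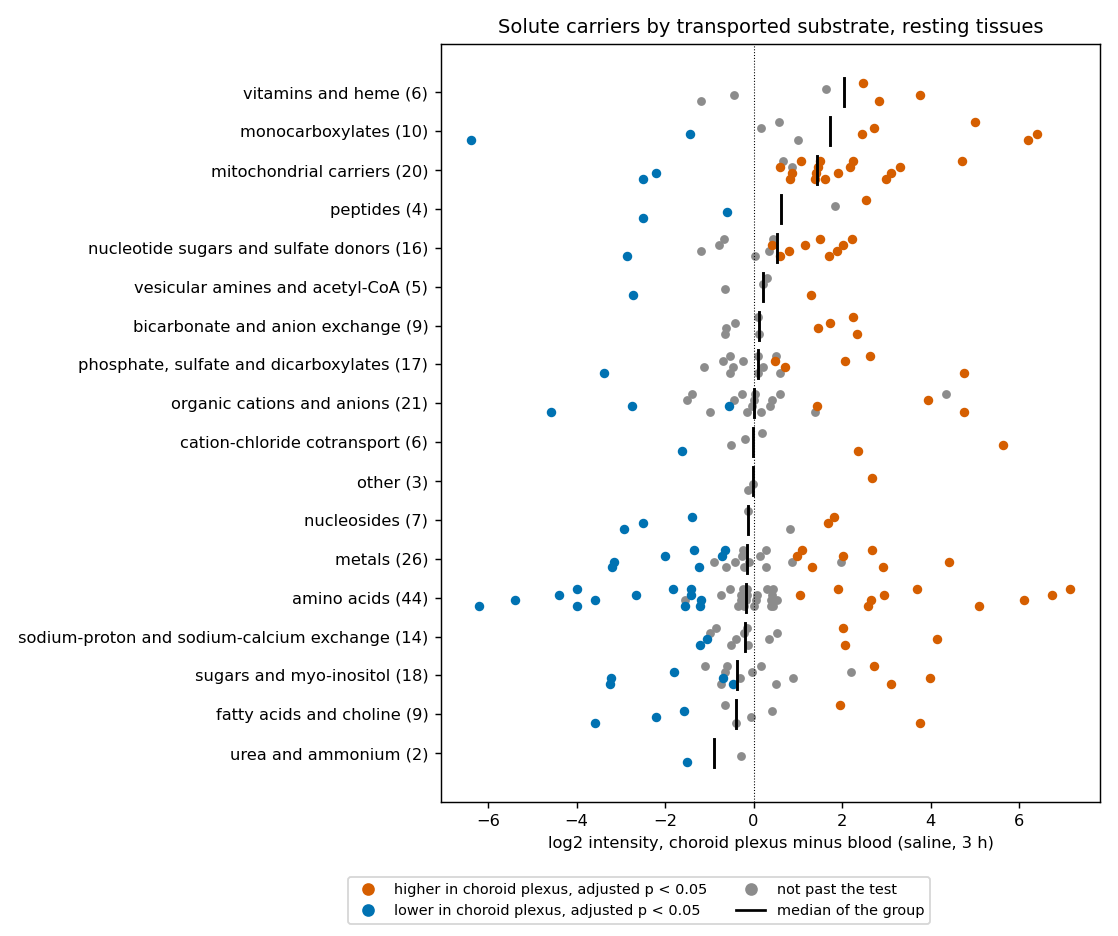
Log2 difference of each tested carrier between choroid plexus and blood of saline rats at 3 h, by substrate group, with called carriers marked apart from the others. Mitochondrial carriers lie mostly above 0, with a median of 1.43, and amino acid carriers spread from -6.20 to 7.16.

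Amino acid carriers gave the widest contrast. Slc7a10, the exchanger of small neutral amino acids and D-serine, read 12.00, 11.92, 11.75 and 11.65 in the 4 choroid plexus pools, against 4.72, 4.66, 4.76 and 4.53 in blood. The ranges lie far apart and the difference was 7.16 ± 0.13 (SE, n = 4 each), with a limma adjusted p of 5.59e-08. The creatine carrier Slc6a8 read 13.48, 13.48, 13.27 and 13.23 in choroid plexus, against 6.43, 6.78, 6.47 and 6.80 in blood, a difference of 6.74 ± 0.15, while its other probe gave 2.62. Both probes put it higher in choroid plexus, but the size depends on the probe. Slc7a8, the light chain of a neutral amino acid exchanger, was higher by 6.12 ± 0.69, and Slc1a3, a glutamate carrier of glia, by 5.09 ± 0.48. Slc38a3, which carries glutamine, was higher by 3.70, and Slc6a13, which carries GABA and taurine, by 2.96. With intensities under 64 raised to 64, a floor chosen after seeing the data, Slc6a13 differed by 1.41 and lost the call.

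The opposite pattern was held by other amino acid carriers. Slc38a5, another glutamine carrier, read 6.05, 5.08, 5.96 and 8.10 in choroid plexus, against 12.30, 12.54, 12.49 and 12.63 in blood, a difference of -6.20 ± 0.58. Slc43a1, a carrier of large neutral amino acids, read 4.58, 4.48 and 5.35 with no value in the fourth pool, against 10.07, 10.87, 10.46 and 9.33 in blood, and differed by -5.38 ± 0.41. Every pool with a value was below every blood sample for both genes. Slc1a5, a carrier of glutamine and other neutral amino acids, differed by -3.57, and Slc7a5 and Slc7a1, which carry large neutral and cationic amino acids, differed by -1.22 and -1.40. Slc6a4, the serotonin carrier of platelets, read 5.18, 5.41, 6.63 and 4.69 in choroid plexus, against 9.89, 9.52, 9.20 and 9.29 in blood, and differed by -4.00 ± 0.40. Platelet markers moved the same way, with 3 of 3 lower in choroid plexus. Slc6a6, the taurine carrier, differed by -1.20. In bulk RNA, fewer cells of a type and less RNA per cell cannot be told apart.

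Most monocarboxylate carriers that were called were higher in choroid plexus. Slc16a8, a lactate carrier known from the retinal pigment and choroid plexus epithelia, read 10.84, 11.07, 10.76 and 11.03 in choroid plexus, against 4.72, 5.17, 4.76 and 4.21 in blood, a difference of 6.21 ± 0.21 (adjusted p = 2.82e-07). The blood values lie at the bottom of the scale. Its relatives Slc16a11, Slc16a13, Slc16a12 and Slc16a6 differed by 6.41 ± 0.61, 4.99 ± 0.37, 2.72 and 2.44. Slc16a3, the lactate exporter of glycolytic cells, went the other way at -1.44. Slc16a10, which despite its family carries aromatic amino acids, read 5.39, 3.59, 5.62 and 3.83 in choroid plexus, against 10.45, 11.13, 10.95 and 11.43 in blood, and its -6.38 ± 0.51 was the lowest difference of any member tested (adjusted p = 1.63e-05).

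Among mitochondrial carriers, the adenine nucleotide exchanger Slc25a4 read 14.34, 14.49, 14.47 and 14.33 in choroid plexus, against 9.57, 9.76, 9.88 and 9.55 in blood. The difference was 4.71 ± 0.13, and its other probes gave 4.24 and 5.07. Its paralogue Slc25a5 was higher by 1.61 and the phosphate carrier Slc25a3 by 2.17. Slc25a30, Slc25a18 and the citrate carrier Slc25a1 were higher by 3.31, 3.11 and 3.00. As means over their probes, Slc25a18 was at 1.09 and Slc25a5 at 1.30, without a call. The 2 members below 0, Slc25a47 and Slc25a21, differed by -2.50 and -2.21. For Slc25a25, an ATP-magnesium and phosphate carrier, the sign rests on the probe, since the brightest gave 2.25 ± 0.14 and the mean over its probes -0.66 with no call.

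Organic anion and vitamin carriers included several known clearance and supply routes of the cerebrospinal fluid. Slc22a8, the organic anion exchanger OAT3, read 8.70, 8.78, 8.65 and 8.83 in choroid plexus, against 3.64, 4.92, 3.18 and 4.21 in blood, a difference of 4.75 ± 0.35 (adjusted p = 1.1e-05). Its blood values lie at the bottom of the scale, and with intensities under 64 raised to 64, a floor chosen after seeing the data, the difference was 2.74. The reduced folate carrier Slc19a1 read 11.83, 11.90, 11.89 and 12.14, against 8.24, 8.48, 8.30 and 7.67 in blood, and was higher by 3.77 ± 0.20. Slc5a6, the sodium-dependent carrier of biotin and pantothenate, was higher by 3.99 ± 0.11. For each of these the tissues were apart on every array. The thiamine carrier Slc19a2 was higher by 2.84, the ascorbate carrier Slc23a2 by 2.47 and the peptide carrier Slc15a2 by 2.55. The monoamine and nucleoside carrier Slc29a4 was higher by 1.69 and the choline-like carrier Slc44a4 by 3.77. With the floor of 64, Slc23a2 differed by 0.43 and lost the call, whereas Slc19a2, Slc15a2, Slc29a4 and Slc44a4 kept it. Slc22a4, the ergothioneine carrier, differed by -4.57 ± 0.20. Slc22a17, which binds lipocalin, read 8.82, 10.64, 15.997 and 15.993 in choroid plexus, against 6.28, 10.87, 10.72 and 6.17 in blood. Its arrays spread over several doublings within each tissue, 2 of them near the upper end of the scale, and the difference of 4.35 ± 2.01 did not pass the test (adjusted p = 0.101).

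Ion and metal carriers showed both directions. Slc12a4, a potassium-chloride cotransporter, read 13.74, 13.83, 13.75 and 13.90 in choroid plexus, against 8.25, 7.97, 8.11 and 8.31 in blood, and was higher by 5.64 ± 0.13. Slc24a4, a potassium-dependent sodium-calcium exchanger, was higher by 4.16 ± 0.23, the sodium-driven bicarbonate carrier Slc4a8 by 2.33 and the dicarboxylate carrier Slc13a3 by 4.76 ± 0.69. Slc39a13, a zinc carrier of the secretory pathway, was higher by 4.41 ± 0.18. The iron exporter Slc40a1 read 5.81, 5.79, 5.73 and 6.13 in choroid plexus, against 8.79, 9.35, 9.08 and 9.03 in blood, and differed by -3.20 ± 0.17, whereas the iron importer Slc11a2 was higher by 1.31. Slc11a1, the metal carrier of phagocytes, differed by -3.16, with 4 of 5 neutrophil markers also lower. Further blood-side members were the citrate carrier Slc13a5 (-3.38 ± 0.89), the fatty acid carrier Slc27a3 (-3.58), the glucose carrier Slc2a4 (-3.23), the purine nucleoside carrier Slc28a2 (-2.93) and the vesicular monoamine carrier Slc18a2 (-2.72).

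Further called carriers belonged to the secretory pathway and to nucleoside transport. Slc35b2, which brings the sulfate donor PAPS into the Golgi, read 11.54, 11.57, 11.43 and 11.41 in choroid plexus, against 10.31, 10.21, 9.74 and 9.67 in blood, and was higher by 1.51 ± 0.18 (adjusted p = 0.000174). The CMP-sialic acid carrier Slc35a1 was higher by 1.88 ± 0.12, and the zinc carriers Slc30a4 and Slc39a7 of intracellular membranes by 2.93 ± 0.37 and 2.67 ± 0.19. The equilibrative nucleoside carrier Slc29a1 was higher by 1.82 ± 0.13. In contrast, Slc38a2 averaged 9.96 in choroid plexus and 10.25 in blood, a difference of -0.29 ± 0.15 that did not pass the test (adjusted p = 0.127), and the phosphate carrier Slc20a1 differed by 0.21 ± 0.13 (adjusted p = 0.213).

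For 20 members too few arrays had a value for a test, and some of them were bright in choroid plexus. The iodide carrier Slc5a5 read 12.96, 12.87, 13.05 and 12.75 in choroid plexus, and 1 blood array had a value, at 4.30. Slc4a10, a sodium-driven bicarbonate carrier of the choroid plexus epithelium, read 10.68, 10.38, 10.59 and 10.37, with 1 blood value of 3.17. No difference is given for these. The copper importer Slc31a1 averaged 8.77 and Slc7a4 8.08 in choroid plexus.

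**Figure D2:**
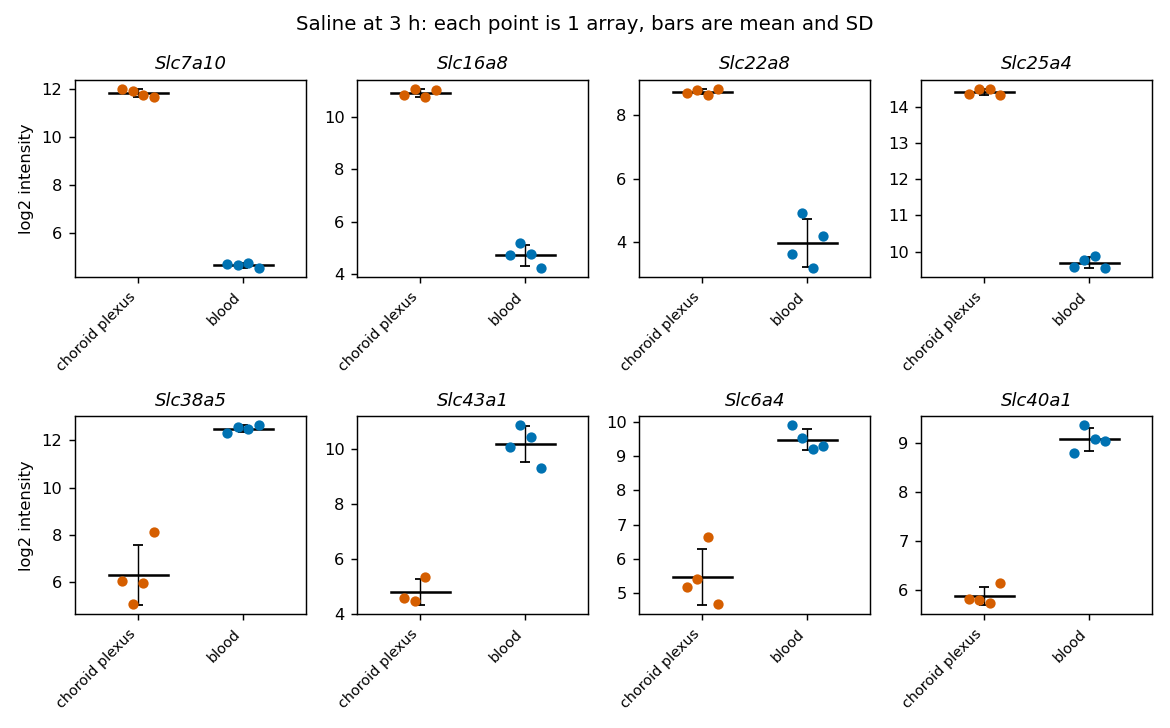
Log2 intensity of 8 carriers on each array of saline choroid plexus (left) and saline blood (right) at 3 h, with the mean of each group as a line. Slc7a10, Slc16a8, Slc22a8 and Slc25a4 are high in choroid plexus and Slc38a5, Slc43a1, Slc6a4 and Slc40a1 in blood, with no overlap between the tissues.

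Few carriers moved in the choroid plexus at 3 h. After EIH, 1 of 250 members tested was called, as lower, against 0.341% of all genes in either direction and 0.00974% as lower. After AMPH limma called 0 of 249, against 0.156%. At an unadjusted p under 0.05, limma gave 21 members after EIH and 31 after AMPH, or 8.40% and 12.4%, against 12.9% and 15.0% of all genes. The median difference was -0.04 over the members in both comparisons, and 0.01 after EIH and 0.03 after AMPH over all genes. The called member was the PAPS carrier Slc35b2. It read 10.77, 10.36, 11.09 and 10.65 after EIH, against 11.54, 11.57, 11.43 and 11.41 after saline, and the difference was -0.77 ± 0.14 (limma adjusted p = 0.0249). After AMPH it read 10.80, 10.76, 10.83 and 11.03, a difference of -0.64 ± 0.14 that did not pass the test (adjusted p = 0.0683). Neither treated group overlaps saline. The call after EIH was lost in 9 of 20 alternatives, among them leaving out any saline pool or EIH replicate 1, 2 or 4, and over all 20 the adjusted p ran between 0.000859 and 0.318. The value after AMPH gained the call in 6 of 20. At 1 day the difference from the 3 h saline pools was -0.24 after EIH (adjusted p = 0.50) and -0.34 after AMPH (adjusted p = 0.245).

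Other carriers stood clear of the 4 saline pools without passing the test, and both treatments share those pools. Among members with at least 3 values a group, 12 were higher and 22 lower than saline on every array after EIH, of 240, against 8.32% and 7.44% of all genes. After AMPH 14 were higher and 19 lower of 243, against 6.97% and 5.58%. Slc5a3, which takes up myo-inositol as an osmolyte, read 11.28, 11.14, 10.73 and 11.37 after EIH and 11.12, 11.27, 11.29 and 10.99 after AMPH, against 9.94, 10.19, 10.13 and 10.13 after saline. Each treated pool is above each saline pool. The differences were 1.04 ± 0.39 after EIH (adjusted p = 0.268) and 1.07 ± 0.39 after AMPH (adjusted p = 0.211), and its other probe gave 1.11 and 1.04. Slc38a2, a neutral amino acid carrier that cells raise under hypertonic stress and amino acid shortage, read 10.69, 10.87, 10.27 and 11.29 after EIH and 10.53, 10.88, 10.99 and 10.50 after AMPH, against 9.99, 9.91, 10.13 and 9.82 after saline. Its groups do not overlap either, at 0.82 (adjusted p = 0.656) and 0.76 (adjusted p = 0.661). The phosphate carrier Slc20a1 differed by 0.67 after EIH and 0.65 after AMPH. Further members without overlap and without a call included Slc2a5 after EIH (1.05, adjusted p = 0.141). After AMPH they included Slc26a3 (1.11, adjusted p = 0.334), Slc12a1 (0.84, adjusted p = 0.518) and, as lower, Slc2a2 (-0.95, adjusted p = 0.248).

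On the lower side, Slc16a8 read 10.20, 9.99, 9.91 and 9.72 after EIH and 9.70, 9.72, 9.98 and 10.74 after AMPH. The saline pools at 10.76 to 11.07 lie above all 8, and the differences were -0.97 ± 0.58 (adjusted p = 0.509) and -0.89 (adjusted p = 0.507). The nucleoside carrier Slc29a1 read 9.17, 8.90, 9.63 and 8.51 after EIH and 9.55, 8.73, 9.09 and 9.26 after AMPH, against 10.08, 10.10, 9.95 and 9.91 after saline, with differences of -0.96 (adjusted p = 0.267) and -0.85 (adjusted p = 0.28). Slc38a3 read 8.76, 8.79, 8.89 and 8.74 after EIH and 8.35, 8.49, 8.31 and 9.22 after AMPH, against 9.65, 9.55, 9.68 and 9.83 after saline, with differences of -0.89 (adjusted p = 0.407) and -1.09 (adjusted p = 0.248). For all of these genes the treated pools are below the saline pools without exception. Smaller differences were measured for Slc12a4, at -0.39 and -0.40, and Slc22a8, at -0.33 and -0.27. Epithelial markers were level, at a summed log2 of 18.45 to 18.52 after AMPH, 18.42 to 18.48 after EIH and 18.47 to 18.52 after saline, with 0 of 12 called in limma in either comparison. The brightest markers lead these sums, and any near the top of the scale can hide a change. Neutrophil markers summed to 8.81 to 9.44 after AMPH, 7.68 to 8.52 after EIH and 7.39 to 8.69 after saline, with 0 called. Monocyte and macrophage markers summed to 10.16 to 10.39 after AMPH and 10.12 to 10.87 after EIH, against 9.68 to 9.99 after saline, with 0 of 3 called after AMPH and 1 of 4 called higher after EIH. The part of these cells in the carrier values was not tested.

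These tests take their spread from all 20 choroid plexus arrays, including those that stood apart. Without EIH 1 day replicate 1, an alternative chosen after seeing the data, the counts at 3 h were again 1 after EIH and 0 after AMPH. In the fit without choroid plexus AMPH 1 day replicate 2, an alternative chosen after seeing the data, Slc5a3 was called after EIH (1.04 ± 0.17, adjusted p = 0.0103) and after AMPH (1.07 ± 0.17, adjusted p = 0.0134). Slc16a8 was likewise called after EIH (adjusted p = 0.0417) and after AMPH (adjusted p = 0.0418), and Slc35b2 after both (adjusted p = 0.0133 and 0.0298). After AMPH that fit also called Slc38a3 (adjusted p = 0.0317) and Slc7a10 (-0.63, adjusted p = 0.0322) as lower. It called Slc11a2 (0.57), Slc31a2 (0.52), Slc15a4 (0.47) and Slc25a27 (1.18) as higher. In all it called 3 members after EIH and 9 after AMPH, or 1.20% and 3.61%, against 1.67% and 3.37% of all genes in that fit. The pool itself was unlike its group. Of 224 members with a value on all 4 AMPH pools at 1 day, 33 were above and 47 below the 3 other pools by more than 1 on the log2 scale, or 14.7% and 21.0%, against 12.4% and 12.3% of 9368 genes. Slc38a2 read 14.51 there and 10.51 to 10.75 in the others, and Slc16a8 read 6.83 there and 9.99 to 10.73 in the others. Stromal markers summed to 16.99 in it and 13.03 to 13.69 in the others, epithelial markers to 17.48 and 18.45 to 18.50, and ependymal markers to 11.33 and 13.90 to 14.41. Erythroid markers summed to 13.75 in it and 10.38 to 10.85 in the others, platelet markers to 13.57 and 9.09 to 9.92, and neutrophil markers to 12.19 and 8.70 to 9.07.

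**Figure D3:**
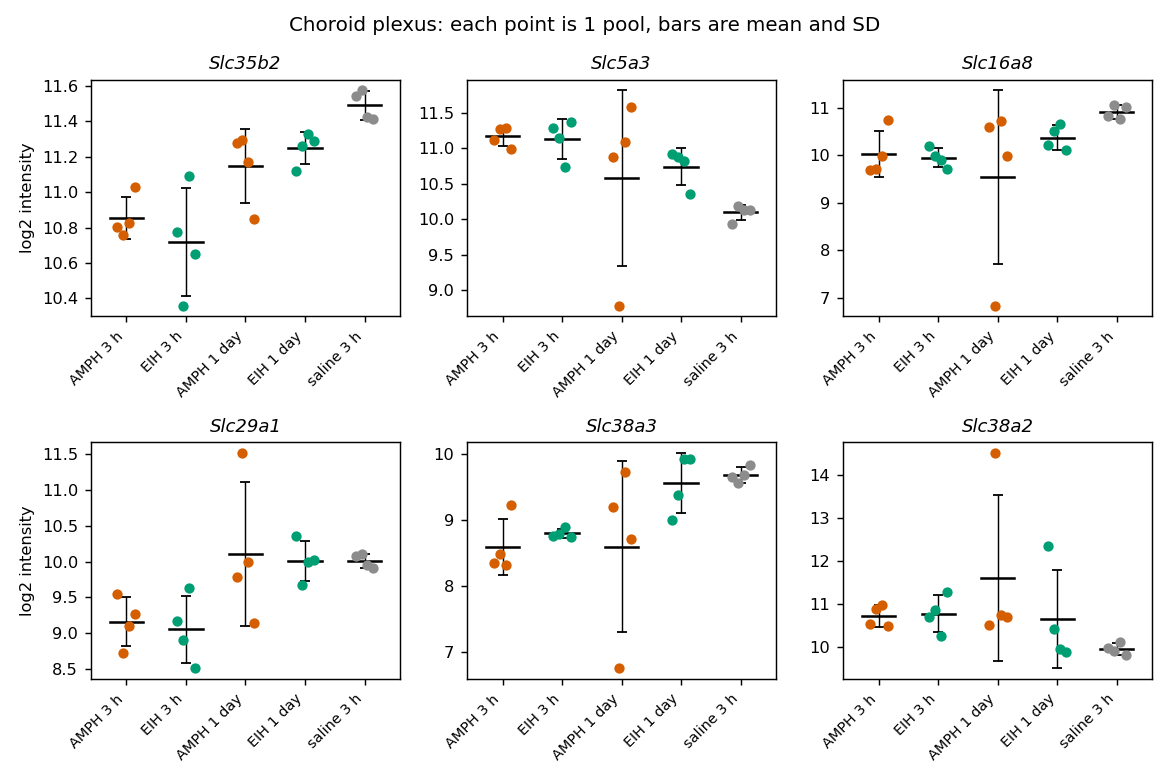
Log2 intensity of 6 carriers on each choroid plexus array, with groups from left to right AMPH 3 h, EIH 3 h, AMPH 1 day, EIH 1 day and saline 3 h, and group means as lines. Slc5a3 and Slc38a2 lie above and Slc35b2, Slc16a8, Slc29a1 and Slc38a3 below the saline pools at 3 h after both exposures, and 1 AMPH pool at 1 day stands away from its group.

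Between AMPH and EIH pools at 3 h limma called 0 of 249 members, against 0.00973% of all genes, and no alternative that left out 1 array called any. At an unadjusted p under 0.05 limma gave 4 members, or 1.61%, against 2.83% of all genes. On every array 1 member was higher and 4 lower after AMPH of 242, against 2.23% and 2.06%. The peptide carrier Slc15a1 read 7.30, 7.16, 6.08 and 7.12 after AMPH, against 7.50, 7.52, 8.06 and 7.51 after EIH (-0.73, adjusted p = 1.0). Slc5a3 differed by 0.03 ± 0.39 and Slc35b2 by 0.14 ± 0.14.

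At 1 day the choroid plexus pools can only be set against saline pools of 3 h, so treatment, time and the different scaling of the arrays cannot be told apart. limma called 0 of 252 members after EIH and 0 of 249 after AMPH, against 0.0% and 0.0294% of all genes. At an unadjusted p under 0.05 limma gave 33 and 47 members, or 13.1% and 18.9%, against 12.3% and 16.9% of all genes. The median difference was 0.20 after EIH and 0.11 after AMPH over the members, beside 0.17 and 0.11 over all genes. On every array 24 members were higher and 6 lower after EIH of 242, against 11.7% and 1.08% of all genes, and 11 higher and 7 lower after AMPH of 240, against 6.55% and 1.67%. After EIH, Slc16a8 read 10.21, 10.52, 10.66 and 10.11, against 10.76 to 11.07 after saline, a difference of -0.55 that did not pass the test (adjusted p = 0.716). After AMPH its 4 pools read 10.60, 6.83, 10.73 and 9.99 (-1.39, adjusted p = 0.246), and without the second pool, which stood apart, the difference was -0.49 (adjusted p = 0.326). Slc38a2 after AMPH read 10.51, 14.51, 10.75 and 10.70, against 9.82 to 10.13 after saline (1.65, adjusted p = 0.245), and without the second pool the difference was 0.69 (adjusted p = 0.436). Slc5a3 was 0.64 above the saline pools after EIH (adjusted p = 0.521) and 0.48 after AMPH (adjusted p = 0.52). The second AMPH pool read 8.78 for it and the others 10.87 to 11.58, and without that pool the difference after AMPH was 1.08 and was called (adjusted p = 0.0387), the 1 member called in that fit, or 0.405%, against 0.0894% of all genes. Between AMPH and EIH at 1 day limma called 0 of 251 members, against 0.0% of all genes. At an unadjusted p under 0.05 limma gave 26 members, or 10.4%, against 5.44% of all genes. With intensities under 64 raised to 64 these shares were 6.37% and 6.32%.

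More carriers were called in blood at 3 h. After EIH, 29 of 239 members were called, 15 higher and 14 lower, against 12.6% of all genes, of which 5.63% were higher and 7.01% lower. After AMPH 22 of 234 were called, 17 higher and 5 lower, against 8.68%, of which 5.08% were higher and 3.6% lower. The members' shares were 12.1% and 9.40%. The median difference was 0.20 after EIH and 0.21 after AMPH over the members, beside 0.08 and 0.01 over all genes. After EIH 17 or 18 were called without EIH replicate 3 or 4 or saline replicate 1 or 3. After AMPH 7 to 11 were called without AMPH replicate 2 or 4 or saline replicate 1, 2 or 3. The share of all genes called in those fits is not given here, so these counts show nothing particular to carriers. Leukocyte markers moved too. T cell markers summed to 12.51 to 13.61 after AMPH and 12.12 to 13.54 after EIH, against 14.24 to 14.56 after saline, with 4 of 4 tested lower in each. Neutrophil markers summed to 15.93 to 16.65 after AMPH and 15.01 to 16.21 after EIH, against 14.27 to 15.01 after saline, with 2 of 5 higher in each. Monocyte and macrophage markers summed to 12.56 to 13.91 after AMPH and 12.41 to 14.10 after EIH, against 11.73 to 12.13 after saline, with 1 called higher in each. B cell markers summed to 10.25 to 10.66 after AMPH and 9.80 to 10.40 after EIH, against 11.30 to 11.89 after saline, with 1 and 2 of 2 called lower, and of the NK and cytotoxic markers 1 of 5 was lower in each. Of the erythroid markers 0 of 5 were called, with median differences of 2.0e-05 after EIH and 1.9e-05 after AMPH. Differences this small point to values at the top of the scale, where a change can go unseen. The part of cell composition in the carrier values below was not tested.

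Of the 8 carriers called higher after both exposures, Slc5a3, Slc38a2 and Slc39a5 kept both calls under all 18 alternatives, and their promoters are shown for that reason. Each is the RefSeq stretch in build GRCr8 of 300 bases, with 250 before the start of the gene and 50 after it. Capitals mark a match to GAANNTTC, a core of the heat shock element.
Slc5a3, chr11:44799537-44799836, plus strand: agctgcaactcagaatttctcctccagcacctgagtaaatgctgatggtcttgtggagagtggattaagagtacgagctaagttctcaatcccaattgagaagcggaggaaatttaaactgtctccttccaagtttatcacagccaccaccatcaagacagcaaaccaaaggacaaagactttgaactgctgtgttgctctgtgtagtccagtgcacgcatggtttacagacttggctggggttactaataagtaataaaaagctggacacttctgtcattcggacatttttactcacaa
Slc38a2, chr7:129742570-129742869, minus strand: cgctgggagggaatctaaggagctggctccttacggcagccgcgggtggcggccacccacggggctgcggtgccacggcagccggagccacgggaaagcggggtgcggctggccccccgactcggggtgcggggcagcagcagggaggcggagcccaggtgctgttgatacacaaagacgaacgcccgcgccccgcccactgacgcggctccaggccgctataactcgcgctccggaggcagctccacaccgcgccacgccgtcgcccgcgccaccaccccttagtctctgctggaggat
Slc39a5, chr7:1414735-1415034, minus strand: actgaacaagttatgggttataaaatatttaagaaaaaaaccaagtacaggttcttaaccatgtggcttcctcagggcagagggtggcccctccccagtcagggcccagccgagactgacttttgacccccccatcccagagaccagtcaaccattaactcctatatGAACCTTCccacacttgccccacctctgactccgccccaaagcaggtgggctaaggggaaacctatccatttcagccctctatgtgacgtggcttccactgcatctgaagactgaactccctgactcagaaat
The Slc38a2 window is 72.3% G and C, that of Slc5a3 43.3% and that of Slc39a5 50.7%, beside a median of 51.7% over all 33469 promoters. Both strands were searched for GAANNTTC and TTCNNGAA (heat shock factor cores), TGACGTCA (cyclic AMP response element), TGGAAA (tonicity factor core), TGATGCAA (ATF4 core) and CACGTG (E-box). All but TGGAAA and TGATGCAA read the same on both strands, and GAANNTTC and TTCNNGAA can overlap each other. The only match in the 3 windows is GAACCTTC in Slc39a5, beginning at position -83 from the start. GAANNTTC is in 10 of 212 members with a promoter, or 4.72%, against 8.59% of all promoters, and CACGTG in 25, or 11.8%, against 6.42%. The shares for TGGAAA were 14.2% of members against 22.7% of all promoters. These are matches of letters in 1 window and say nothing of binding.

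Slc5a3 had the largest called rise after EIH. It read 9.50, 10.04, 10.80 and 10.54 after EIH and 9.48, 10.74, 9.16 and 9.25 after AMPH, against 6.43, 7.25, 6.81 and 7.49 after saline. Every treated rat was above every saline rat. The differences were 3.23 ± 0.47 after EIH (limma adjusted p = 0.000216) and 2.66 ± 0.47 after AMPH (adjusted p = 0.00251), and its other probe gave 3.46 and 2.76. Saline rats of 1 day, at 5.99 to 8.04, were also below every treated rat of 3 h. Slc38a2 read 11.49, 12.26, 12.40 and 12.05 after EIH and 11.20, 12.11, 11.41 and 11.28 after AMPH, against 10.34, 10.38, 10.32 and 9.97 after saline. The groups do not overlap, and the differences were 1.80 ± 0.26 (adjusted p = 0.000216) and 1.24 ± 0.26 (adjusted p = 0.0065). Saline rats of 1 day read 9.43 to 10.20 for it.

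Slc39a5, a zinc importer of epithelia, read 7.48, 6.77, 5.45 and 7.23 after EIH and 6.52, 7.50, 7.25 and 7.28 after AMPH, against 4.44, 4.30, 4.76 and 3.80 after saline. The differences were 2.41 ± 0.52 (adjusted p = 0.00433) and 2.81 ± 0.52 (adjusted p = 0.00352). The saline rats lie at the bottom of the scale, and with intensities under 64 raised to 64 the differences were 0.87 (adjusted p = 0.0476) and 1.14 (adjusted p = 0.0142). Saline rats of 1 day read 6.36 to 7.49, within the treated range and above the saline rats of 3 h. Time and array scaling cannot be told apart in that difference, which was not tested. Saline rats of 1 day were set beside the treated rats of 3 h for every called carrier. Saline rats of 1 day overlapped the treated rats in 10 of 15 higher and 3 of 14 lower members after EIH, and in 10 of 17 higher and 4 of 5 lower members after AMPH. Over all called genes they overlapped in 273 of 557 higher and 180 of 694 lower after EIH, and in 243 of 501 higher and 115 of 355 lower after AMPH. The higher members free of that overlap were Slc5a3, Slc38a2, Slc16a3, Slc22a7 and Slc25a20 after EIH. After AMPH they were Slc5a3, Slc38a2, Slc16a3, Slc13a5, Slc36a3, Slc1a3 and Slc22a25. These saline rats belong to another time and to arrays of another median.

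Further rises were spread over the substrate groups. The citrate carrier Slc13a5 read 9.78, 10.90, 11.42 and 11.11 after EIH and 9.90, 10.71, 10.87 and 10.01 after AMPH, against 7.62, 9.12, 9.14 and 9.17 after saline, and rose by 2.04 (adjusted p = 0.00107) and 1.61 (adjusted p = 0.0112). The lactate exporter Slc16a3 rose by 1.35 after EIH (adjusted p = 0.0386) and 1.48 after AMPH (adjusted p = 0.0317). The large neutral amino acid carrier Slc7a5 rose by 0.78 after EIH (adjusted p = 0.0425), a call lost in 8 of 18 alternatives. The carnitine carrier Slc25a20 rose by 0.93 and the urate carrier Slc22a12 by 2.15 after EIH. Other fitted rises came from dim genes, among them the vesicular zinc carrier Slc30a3 (3.00, adjusted p = 0.0309), the organic anion carrier Slc22a7 (2.96), the vesicular glutamate carrier Slc17a8 (2.21) and Slc24a1 (2.07). Saline rats of 3 h averaged 5.56, 3.85, 3.80 and 3.66 for these 4 genes, which is at or near the bottom of the scale. With intensities under 64 raised to 64, Slc30a3 differed by 2.52 (adjusted p = 0.0411), whereas Slc22a7, Slc17a8 and Slc24a1 differed by 0.81, 0.25 and 0.28 and lost the call. After AMPH the bile acid ligase Slc27a5 rose by 2.44, Slc1a3 by 2.09 and Slc29a4 by 1.82, also from averages of 4.44, 3.70 and 5.74. With that floor they differed by 1.15, 0.07 and 1.37, without a call. Of all called members it kept 22 of 29 after EIH and 15 of 22 after AMPH.

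Among nucleotide sugar carriers 4 were lower and 0 higher after EIH of 16 tested, and among mitochondrial carriers 4 were lower and 1 higher of 20, beside 7.01% lower and 5.63% higher of all genes. Slc35b4, a carrier of UDP-linked sugars into the secretory pathway, read 6.20, 7.22, 7.44 and 6.04 after EIH, against 8.75, 8.48, 8.35 and 8.14 after saline. The groups are apart and the fall was -1.71 ± 0.37 (adjusted p = 0.00399), although its other probe gave -0.55. Slc35d2, Slc35d3 and the CMP-sialic acid carrier Slc35a1 fell as well, with differences of -2.78, -1.79 and -1.02. Slc35d2 had a value in 2 of the 4 EIH rats, and its treated values and those of Slc35d3 lie at the bottom of the scale. With intensities under 64 raised to 64 they differed by -0.44 and -0.46 and lost the call, which Slc35d3 lost in 8 of 18 alternatives. The mitochondrial members that fell were the glutamate carrier Slc25a22 (-0.84), the adenine nucleotide exchanger Slc25a5 (-0.60), the phosphate carrier Slc25a3 (-0.58) and Slc25a14 (-1.26), whose other probe gave 0.61. Their calls were lost in 9, 9, 6 and 8 of 18 alternatives, most of these leaving out 1 array. The sugar carrier Slc50a1 read 8.65, 7.95, 8.09 and 7.56 after EIH and 8.86, 8.25, 8.90 and 7.81 after AMPH, against 9.75, 9.79, 9.22 and 9.40 after saline. It fell in both, with differences of -1.48 ± 0.29 (adjusted p = 0.00193) and -1.08. The multivitamin carrier Slc5a6 (-1.28 ± 0.28, adjusted p = 0.00457) and the fatty acid carrier Slc27a1 (-1.16 ± 0.25, adjusted p = 0.0043) fell after EIH. After AMPH the other falls were Slc16a10 (-1.33), Slc35b4 (-1.23), the potassium-chloride cotransporter Slc12a7 (-0.99) and Slc25a32, a mitochondrial folate and flavin carrier (-2.08, adjusted p = 0.0181). The calls of Slc16a10, Slc35b4 and Slc12a7 after AMPH were lost in 6, 10 and 9 of 18 alternatives. Saline rats of 1 day overlapped the AMPH rats for Slc50a1, Slc35b4, Slc12a7 and Slc25a32, but not for Slc16a10. Slc25a32 read 4.21, 3.19 and 3.74 in 3 AMPH rats, against 5.33 to 6.36 after saline, all near the bottom of the scale, and with that floor it differed by -0.09 (adjusted p = 0.937).

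**Figure D4:**
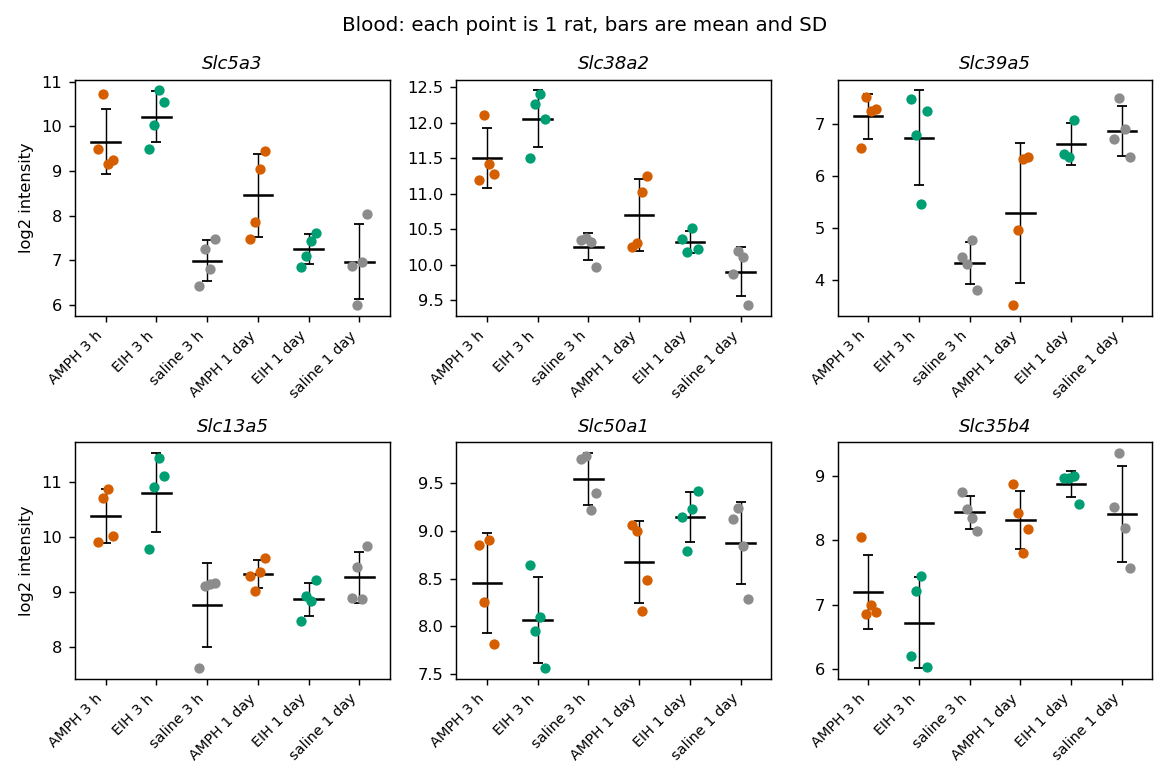
Log2 intensity of 6 carriers on each blood array, with AMPH, EIH and saline from left to right at 3 h and then at 1 day, and group means as lines. Beside saline at 3 h, Slc5a3, Slc38a2 and Slc13a5 are high and Slc50a1 and Slc35b4 low after both exposures. For Slc39a5 the saline rats of 1 day lie in the range of the treated rats of 3 h. They also overlap the treated rats for Slc50a1 after both exposures, Slc13a5 after EIH and Slc35b4 after AMPH.

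Between AMPH and EIH in blood at 3 h limma called 0 of 244 members, against 0.0397% of all genes. At an unadjusted p under 0.05 limma gave 30 members, or 12.3%, against 9.53% of all genes. Slc5a3 differed by -0.56 ± 0.47 (adjusted p = 0.783) and Slc38a2 by -0.55 ± 0.26 (adjusted p = 0.517), and Slc39a5 by 0.41 ± 0.52.

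By 1 day limma called no carrier after EIH in blood, 0 of 231, against 0.0819% of all genes. At an unadjusted p under 0.05 limma gave 27 members, or 11.7%, against 10.3% of all genes. Slc5a3 differed by 0.28 ± 0.47 (adjusted p = 0.867) and Slc38a2 by 0.42 ± 0.26 (adjusted p = 0.592). After AMPH 5 of 231 were called, 3 higher and 2 lower, against 2.08% of all genes (1.64% higher and 0.439% lower). Slc11a1 read 10.89, 10.87, 11.36 and 10.57 after AMPH, against 10.18, 9.46, 8.96 and 9.21 after saline, and rose by 1.47 ± 0.33 (adjusted p = 0.027). The lactate carrier Slc16a1 rose by 1.85 (adjusted p = 0.037) and the zinc exporter Slc30a1 by 1.33 (adjusted p = 0.0411). In the fit without saline replicate 4, which stood apart and read 4.47 for Slc16a1 and 6.36 for Slc30a1, these were 1.16 (adjusted p = 0.0509) and 0.85 (adjusted p = 0.0722), and Slc11a1 was 1.39 (adjusted p = 0.0623). The phosphate carrier Slc20a2 read 7.04, 6.81, 6.45 and 6.11 after AMPH, against 8.74, 8.74, 8.14 and 7.57 after saline, and fell, with a difference of -1.70 ± 0.35 (adjusted p = 0.0187). Slc6a13 fell too (-1.90, adjusted p = 0.0358). At 3 h after AMPH limma called Slc20a2 and Slc6a13 higher instead (adjusted p = 0.0316 and 0.0157). With intensities under 64 raised to 64, the 3 h difference of Slc6a13 was 0.44 and lost the call. Saline rats read 4.30 to 4.46 for Slc6a13 at 3 h and 5.54 to 7.60 at 1 day. For Slc20a2 they read 5.89 to 8.03 at 3 h and 7.57 to 8.74 at 1 day. Slc5a3 read 7.48, 7.85, 9.04 and 9.45 after AMPH, against 6.87, 5.99, 6.97 and 8.04 after saline, so its groups overlap, and the 1.49 ± 0.47 did not pass the test (adjusted p = 0.0948). AMPH replicates 3 and 4 had the 2 higher values. Neutrophil markers summed to 15.90 and 16.09 in those rats and to 14.60 and 14.73 in the other AMPH rats, against 12.45 to 14.56 after saline, with 2 of 5 called higher, and their part was not tested. The count of 5 was 0 without AMPH replicate 3 or 4, 3 without AMPH replicate 2 or saline replicate 4, and 12 without saline replicate 1. Without saline replicate 4 it was 1.32% of members, against 0.854% of all genes. For the other fits the share of all genes is not given here. Between AMPH and EIH at 1 day limma called 0 of 238 members, against 0.0% of all genes. At an unadjusted p under 0.05 limma gave 22 members, or 9.24%, against 11.8% of all genes.

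The tissues were compared directly at 3 h by the interaction, the effect in choroid plexus minus the effect in blood. After EIH 29 of 236 members were called, 10 above and 19 below 0, against 9.88% of all genes (5.81% above and 4.08% below), with a median of -0.21 over the members and -0.04 over all genes. After AMPH 13 of 232 were called, 4 above and 9 below 0, against 6.42% (2.96% above and 3.46% below), with medians of -0.19 and 0.02. Leaving out 1 array gave 16 to 28 calls after EIH and 6 to 21 after AMPH. The share of all genes in those fits is not given here. Slc5a3 differed by -2.19 ± 0.44 after EIH (limma adjusted p = 0.00403), a call kept in 26 of 26 alternatives, with 1.04 in choroid plexus beside 3.23 in blood. After AMPH it differed by -1.59 (adjusted p = 0.035), a call lost in 11 of 26. Slc35b2 differed by -1.13 after EIH (adjusted p = 0.00941) and -1.04 after AMPH (adjusted p = 0.0228). Slc16a8 differed by -1.83 and -1.91, with blood values near the bottom of the scale, and each call was lost in 14 of 26 alternatives. For Slc38a2 the difference did not pass the test (-0.98, adjusted p = 0.0638, and -0.48, adjusted p = 0.415). After AMPH the calls kept in 26 of 26 alternatives included Slc16a3 (-1.65, adjusted p = 0.0209), the taurine carrier Slc6a6 (-1.57, adjusted p = 0.0114) and the lysosomal nucleoside carrier Slc29a3 (-1.19, adjusted p = 0.0164). Above 0 stood Slc35b4 (1.56) and Slc19a2 (1.64) after EIH, and Slc25a32 (2.30), Slc19a2 (1.72) and Slc20a1 (1.05) after AMPH. Slc19a2 and Slc25a32 are dim in blood, and with intensities under 64 raised to 64 Slc19a2 differed by 0.41 and 0.54 and Slc25a32 by 0.28, without a call.

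**Figure D5:**
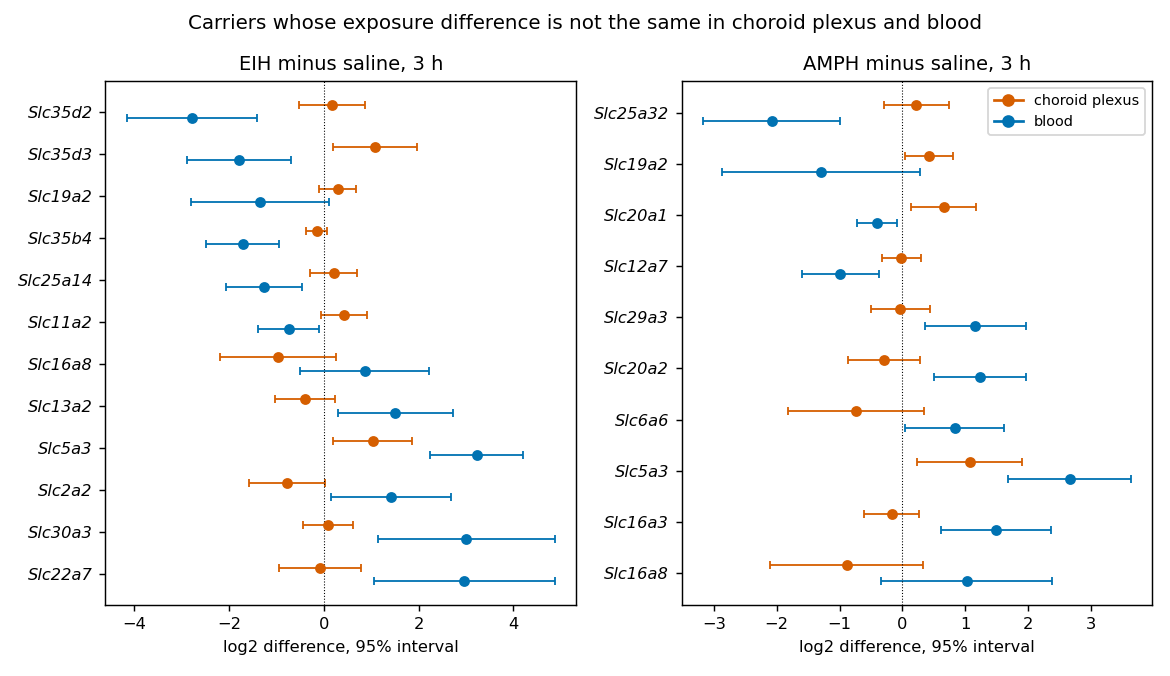
Log2 difference from saline at 3 h with its 95% interval, in choroid plexus (upper point) and in blood (lower point), for carriers whose difference between the tissues passed the test, up to 6 each way, after EIH (left) and AMPH (right). Slc5a3 lies at 1.04 in choroid plexus and 3.23 in blood after EIH, and at 1.07 and 2.66 after AMPH.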

How the data were processed

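The authors deposited 1 table of single-colour array intensity values for 14055 probes on 44 arrays. Per the labels' protocols, RNA was labelled with Cy3 for Agilent arrays. How the values were normalized, and when a cell was left blank, is not given in the sources used here. Of the probes, 12926 had 1 symbol and 1129 none. Intensities were taken to log2, a blank was left out and not filled in, and the brightest probe stood for its gene. Comparisons used limma 3.58.1 in R 4.3.3 (lmFit, contrasts.fit, eBayes) on all genes with at least 2 values in each compared group, with Benjamini-Hochberg adjustment over all of them and a threshold of 0.05. Treatment comparisons were fitted on all arrays of the tissue, the tissue comparison on its 8 arrays and interactions on the 24 arrays of 3 h. The method was tested on simulated data. Normalization, filters, probe rule, spread model, array weights, left-out arrays and shared rats were varied. The number of arrays limits the precision. Named carriers were the called ones with the largest differences (12 higher and 10 lower at rest, up to 8 each way elsewhere). Up to 4 each way that missed the threshold without overlap, and a fixed set, were added. The text prints a part of these. Further called carriers named beside them were chosen after their values were seen. Members and lists were chosen with earlier results of these data known. Of the members, 236 matched RefSeq by accession and 212 had a promoter.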

Additional observations from a re-analysis of the deposited data

Results flagged for a closer look

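Sets of 4 arrays were checked for the carriers and groups of the named results, where all 4 arrays had a value. Not all of these results are printed above. Among 323 sets, 29 held an array far from the other 3, by the gap to the nearest of them as a share of the range. Chance alone gives such a gap in about 1 set of 20. Choroid plexus AMPH 1 day replicate 2 gave 4 of them, at 14.51 for Slc38a2 (others 10.51 to 10.75), 9.83 for Slc16a6 (others 12.67 to 12.75), 9.78 for Slc5a5 (others 12.26 to 12.57) and 6.52 for Slc25a15 (others 7.49 to 7.60). In choroid plexus at 3 h the values were 8.98 for Slc22a8, 6.08 for Slc15a1 and 10.77 for Slc25a14 in AMPH pools, 8.06 for Slc15a1 and 8.56 for Slc22a8 in EIH pools, and 6.83 for Slc4a8 and 7.97 for Slc2a4 in saline pools. EIH pools at 1 day gave 10.35 for Slc5a3 (others 10.82 to 10.91) and 11.41 for Slc7a10.

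In blood at 3 h, Slc13a5 read 7.62 in 1 saline rat (others 9.12 to 9.17), and other saline rats stood out at 5.89 for Slc27a2, 9.97 for Slc38a2, 5.81 for Slc22a7, 5.94 for Slc6a11, 12.59 for Slc3a2 and 7.21 for Slc7a8. An AMPH rat read 8.05 for Slc35b4 (saline rats 8.14 to 8.75) and an EIH rat 4.43 for Slc9a3r1 (others 8.48 to 8.64). At 1 day the values were 4.63 for Slc41a2 after AMPH, 7.90 for Slc28a1, 8.81 for Slc2a6, 5.67 for Slc3a1, 10.16 for Slc25a11 and 8.55 for Slc30a1 after EIH, and 6.36 for Slc30a1 after saline.

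The 3 h effect differed between the tissues, choroid plexus minus blood, by the interaction test in limma. After EIH the named differences above 0 were 2.95 for Slc35d2, 2.87 for Slc35d3, 1.64 for Slc19a2, 1.56 for Slc35b4, 1.47 for Slc25a14 and 1.17 for Slc11a2. Those below 0 were -3.05 for Slc22a7, -2.91 for Slc30a3, -2.20 for Slc2a2, -2.19 for Slc5a3, -1.91 for Slc13a2 and -1.83 for Slc16a8. After AMPH they were 2.30 for Slc25a32, 1.72 for Slc19a2, 1.05 for Slc20a1 and 0.97 for Slc12a7 above 0. Below 0 stood -1.91 for Slc16a8, -1.65 for Slc16a3, -1.59 for Slc5a3, -1.57 for Slc6a6, -1.53 for Slc20a2 and -1.19 for Slc29a3. After EIH the values of Slc35b4, Slc25a14 and Slc11a2 went down to 0.61, 0.63 and 0.67 over 26 alternatives. Their calls were lost in 1, 2 and 1 of these. Slc22a7, Slc30a3, Slc35d2, Slc35d3, Slc2a2, Slc13a2, Slc16a8, Slc19a2, Slc25a32 and Slc6a6 include groups at the bottom of the scale. With intensities under 64 raised to 64, the calls of Slc22a7, Slc30a3, Slc35d2, Slc35d3, Slc2a2, Slc19a2 and Slc25a32 were lost and the others kept. Over all 26 alternatives, however, each Slc16a8 call was lost in 14, that of Slc13a2 after EIH in 10 and that of Slc12a7 after AMPH in 14.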

How the results depend on the processing

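Of 252 named results, not all of them printed above, 131 passed the test. Of those, 74 kept the call under every alternative run, as 56 of 62 did in the resting tissue comparison. Of the 121 that did not pass, 34 passed under some alternative, and the floor left 15 results without a value. Array weights moved the number of carriers called to 17 after EIH and 27 after AMPH in choroid plexus at 3 h, 1 after EIH at 1 day, 37 after AMPH in blood at 3 h, 2 after EIH in blood at 1 day and 31 for the AMPH interaction. With only the compared groups in the fit, the counts were 3 after EIH in choroid plexus, 14 after AMPH in blood at 3 h and 0 after AMPH in blood at 1 day. Leaving out the lowest 25% of means gave 1 after AMPH in choroid plexus at 3 h and 8 after AMPH in blood at 1 day, and an intensity trend with robust spread gave 1 and 8 there and 1 for AMPH minus EIH in blood at 1 day. A floor of 64, chosen after seeing the data, gave 1 after AMPH in choroid plexus at 3 h, 2 and 8 after EIH and AMPH in blood at 1 day and 29 for the AMPH interaction. In that order these were 0.402%, 0.866%, 3.46% and 12.5% of members, against 0.283%, 0.236%, 4.79% and 11.2% of all genes. The mean over probes gave 17 for the EIH interaction, and dropping every pool whose rat recurs gave 15 there and 0 after EIH in choroid plexus at 3 h. The cause was not tested. For the other alternatives in this section the share of all genes is not given, so their counts show nothing particular to carriers. Leaving out 1 array gave 114 to 131 calls between tissues. In choroid plexus it gave 0 to 3 after EIH, 0 to 9 after AMPH and 0 to 1 after AMPH at 1 day. In blood it gave 17 to 35 after EIH, 7 to 26 after AMPH and 0 to 12 after AMPH at 1 day, and for the interactions 16 to 28 and 6 to 21. Signs turned for Slc5a3 in blood after EIH at 1 day (from -0.047 without saline replicate 2 to 0.64 without saline replicate 4) and between AMPH and EIH in choroid plexus at 3 h (-0.016 as mean over probes, and -0.10 to 0.11 leaving out 1 array), for Slc39a5 between AMPH and EIH in blood at 3 h (-0.023 to 0.65 without EIH replicate 3 or 1), and for Slc25a25 between tissues (-0.66 as mean over probes). Pools with a recurring rat could not be left out for EIH at 1 day, where 1 array would remain. Replicate numbers follow the order of the samples and pair nothing, and no paired analysis was run. Rat numbers do link blood samples to choroid plexus pools, and a shared rat as a random replicate block gave 127 calls between tissues.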
